A study of Ovis aries with 3 samples.

Results

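Transcripts were taken as cecum-dominant when their level in the sheep cecum was at least 5 RPKM (reads scaled to the length of the transcript and to the read total of the library) and at least 2 times the level in both the duodenum and the colon. Of 68818 annotated coding transcripts with reads in any region, 367 met this rule. After 1 transcript was kept from each set that shares an exon, 161 remained. The RPKM values of the 3 regions chose these transcripts, so their higher level in the cecum is a description and carries no test. The same rule found 194 transcripts for the colon and 584 for the duodenum.

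The tissue was labelled as intestinal mucosal epithelium of small-tailed Han sheep, taken from the duodenum, the cecum and the proximal colon of ewes aged 11 months. RNA of 3 ewes was pooled into 1 library for each region, so that no region has a replicate and a difference between regions includes any difference between these 3 pools. The ewes received no treatment that the labels name, and all 3 regions share the strain and age. Estimated reads on distinct exons numbered 6.86e+07 for duodenum, 6.44e+07 for cecum and 7.50e+07 for colon, and intervals below cover the counting of reads only.

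The cecum is the blind pouch at the start of the large intestine, where microbes ferment plant fibre that escaped digestion further up and release short-chain fatty acids. Position along the gut is marked by transcription factors, above all the HOX genes, which are used in clusters so that different members mark different levels of the body axis. Under the epithelium lie fibroblasts, smooth muscle, nerves and immune cells, which make the collagen and proteoglycan matrix, move the wall and guard it against microbes.

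The highest levels belonged to LOC101103222, a gene with a provisional symbol, and to secreted products. LOC101103222 stood at 4357 RPKM in cecum, 626 in duodenum and 1026 in colon. OLFM4, a secreted glycoprotein of intestinal crypts, stood at 2945 RPKM in the cecum, 1204 in the duodenum and 483 in the colon. These 2 transcripts held 61.2% of the reads on exons of all 161 transcripts in duodenum, 52.2% in cecum and 33.5% in colon. The 161 transcripts together held 0.471% of the reads summed over all distinct exons in duodenum, 1.55% in cecum and 0.437% in colon.

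Most of the other transcripts were of moderate level. A cecum level between 5 and 10 RPKM was found for 61 transcripts, 79 lay between 10 and 50 RPKM, 19 between 50 and 500 RPKM and 2 above 500 RPKM. The median was 13.8 RPKM in the cecum, 5.11 in the colon and 3.33 in the duodenum. The median of all 10895 transcripts with a cecum level of at least 5 RPKM, again 1 for each shared exon, was 15.9, 14.96 and 15.01 RPKM in the same order. The cecum-dominant transcripts were thus close to the middle level in the cecum and lower in both other regions.

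Among those 10895 transcripts, 9.97% were at least 2-fold higher in the cecum than in the duodenum and 2.09% than in the colon. Both limits were passed by 150 of them, or 1.38%. For the 10895, 1 transcript per shared exon was kept before the limits were applied, and for the 161 it was kept afterwards. The 161 are therefore not all among the 10895. The step over the colon was the narrower one for 137 of the 161 transcripts, and the duodenum was the higher of the other regions for 24. The median fold over the higher of the other regions was 2.42. It reached 3 in 44 transcripts, 5 in 10 and 10 in 4.

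**Figure D1:**
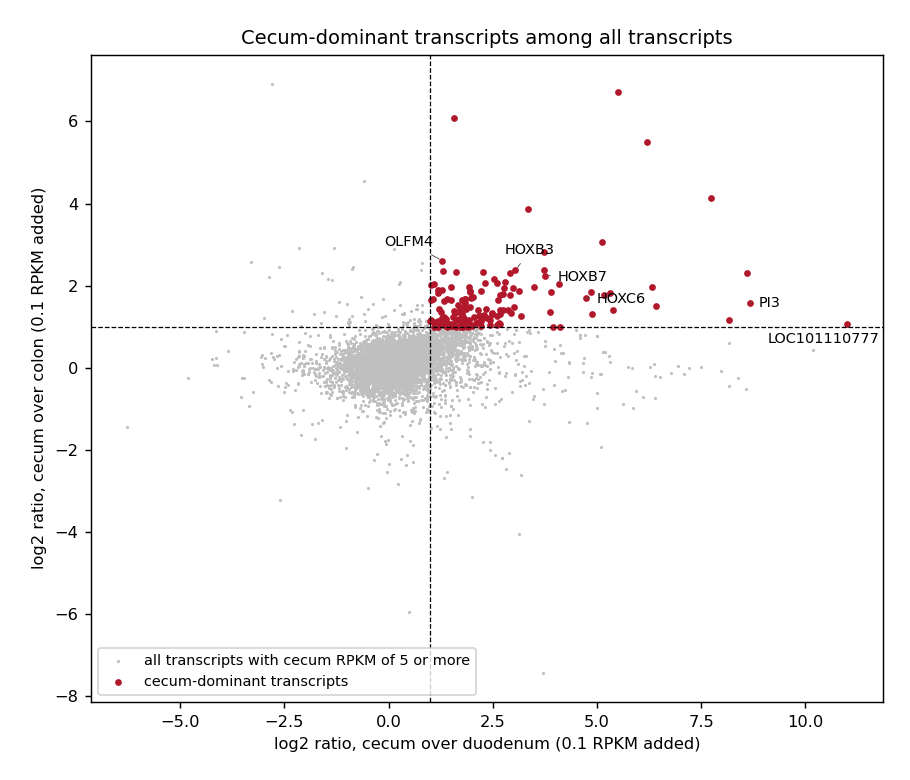
Log2 ratio of the cecum over the duodenum (horizontal axis) and over the colon (vertical axis) for each transcript with a cecum level of at least 5 RPKM, after adding 0.1 RPKM. Grey points are 10895 such transcripts with 1 kept per shared exon, red points are the 161 cecum-dominant ones, and dashed lines mark 2-fold. LOC101110777 and PI3 lie far to the right, and the step over the colon was 2.09-fold for LOC101110777 and 3.001-fold for PI3.

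The plot of both ratios shows that the set spreads further along the duodenum axis than along the colon axis. The median log2 ratio was 1.94 over the duodenum and 1.33 over the colon, against 0.06 and 0.11 for all 10895 transcripts. The named transcripts closest to the limits were PDE7B, with 5.02 RPKM in the cecum, GJA1, at 2.02 times the duodenum, and CAPG, at 2.01 times the colon. The named transcripts just outside were a second transcript of HAPLN1 with 4.92 RPKM, GREM1 at 1.89 times the duodenum, and a second transcript of AEBP1 at 1.9999 times the colon. With library totals scaled by the TMM factors of edgeR, 17 transcripts with a symbol fell under 2-fold in 1 of the ratios. They were GJA1 over the duodenum and AEBP1, CAPG, CPQ, CXCL8, ECM2, EMP3, HOXB5, IGFBP6, ISLR, ITIH5, LOC101110777, LOC101117691, ME1, PDGFRL, SMYD1 and VCAN over the colon. With a total that leaves out the 10 transcripts with the most reads, these 17 and also CLDN1, CXCL14, FCGR1A and MGP over the colon fell under 2-fold. With the median over exons, CDKN1C did so over both regions.

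The files list exons, which allowed the pattern to be followed along each transcript. Of 1401 exons with at least 10 reads over the 3 regions, the cecum was highest in 1370, or 97.8%. In 138 of the 160 transcripts with such an exon, the cecum was highest in every one of them. The cecum was at least 2-fold above both regions in 1028 of the 1401, or 73.4%, and SMYD1 reached this in 3 of its 9. These exon values enter the sums that chose the transcripts. They show only that a highest level in the cecum was rarely carried by single exons. The 2-fold step did not hold in every exon. FBN1 had 65 such exons and the cecum was highest in all 65, and COL4A6 had 46, of which 43 were highest in the cecum.

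The one transcript without such an exon has no symbol and rests on 2.78 reads over 9 bases in the cecum, 1 read in the duodenum and 0 in the colon. Its cecum level was 3.05 times that of the duodenum, with a 95% interval of the log2 ratio from -1.92 to 7.43. The 161 transcripts were shorter than the 10895, with a median exon length of 1952 against 2387 bases and a median of 6 against 9 exons. Reads covered a median of 98.5% of their length in the cecum, against 98.6% for all.

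A gene symbol could be given to 72 of the 161 transcripts, 63 by their accession and 9 by an exon shared with a named transcript. Among the 72, 9 carry only a provisional LOC symbol, and 89 transcripts have no symbol. The groups and lists of named genes below hold 70 of the 72, and counts over all 161 transcripts hold every one. In 11 pairs the partners share exon ends, so that the set holds 150 separate groups. The groups by role used below were formed after the values had been seen.

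Transcription factors were the named group with the largest median ratios. The 7 transcripts described were HOXC6, SNAI2, HOXB7, HOXB5, HOXB3, OSR1 and LMO1. Their median log2 ratio was 3.15 over the duodenum and 1.72 over the colon. Their levels were low next to those of secreted products, with a range of 5.26 to 22.7 RPKM in the cecum.

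HOXC6 stood at 0.752 RPKM in duodenum, 22.7 in cecum and 6.90 in colon. HOXB7 stood at 0.990, 14.6 and 2.99 RPKM in the same order. HOXB3 stood at 1.08, 9.60 and 1.77 RPKM. All 3 homeobox genes were thus lowest in the duodenum and intermediate in the colon. Of the 4 HOX genes in the set, HOXB3 had the largest step over the colon, 5.41-fold, and HOXC6 the largest over the duodenum, 30.2-fold.

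HOXB5 passed the limits through 1 of its transcripts, with 0.538 RPKM in duodenum, 9.73 in cecum and 4.81 in colon. That is 2.02 times the colon. The HOXB5 transcript with the highest mean level stood at 0.974, 11.1 and 6.14 RPKM, or 1.80 times the colon, and was outside the set. The call for HOXB5 therefore depended on which transcript was read. With the median over exons, the log2 ratio of the first transcript over the duodenum was 7.88 in place of 4.18.

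The HOXB genes lie side by side in mammalian genomes, and their positions in the files showed further transcripts of the set near them. The start and end of 8 cecum-dominant transcripts fell within or beside the 58.7 kb from HOXB7 to HOXB3. Together they reached from position 37412609 to 37487209, and 5 of these have no symbol. Among the 5, XM_012127720.1 shares exon ends with HOXB7, XM_012127710.1 with HOXB3, and XM_012127721.1 with XM_012186755.1. The 8 are therefore not all separate. The files give positions without a chromosome and name no build, so a shared chromosome was not shown for each. The highest of the 5, XM_004013360.2 at 37438555 to 37443146, lies between HOXB7 and HOXB5 and stood at 1.64 RPKM in duodenum, 138 in cecum and 35.4 in colon. XM_012186755.1, at 37424045 to 37425166, stood at 0.559, 22.8 and 2.62 RPKM, which is 8.67 times the colon. These transcripts were singled out after their values had been seen.

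Not every HOX gene followed this order. The list of 46 HOX and regional factors held 13 genes with at least 1 RPKM in a region. Of these 13, 11 were at least 2-fold higher in the cecum than in the duodenum, and 4 were at least 2-fold higher than in both regions, against 11.6% and 2.11% of 5883 named genes. The rule used these levels, and nothing is read from the difference. The 13 had a median log2 ratio of 3.04 over the duodenum and 0.39 over the colon. The same medians over the 5883 named genes were 0.05 and 0.13. HOXB9 stood at 2.88 RPKM in duodenum, 105 in cecum and 79.9 in colon, and HOXA9 at 0.014, 12.3 and 13.4 RPKM, so that both were shared by the large intestine. HOXB13, a marker of the hindmost gut, stood at 0, 0.070 and 8.07 RPKM and was a colon gene in these libraries. HOXD10 was steep, at 0.011, 3.93 and 0.292 RPKM, but stayed under the 5 RPKM limit.

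**Figure D2:**
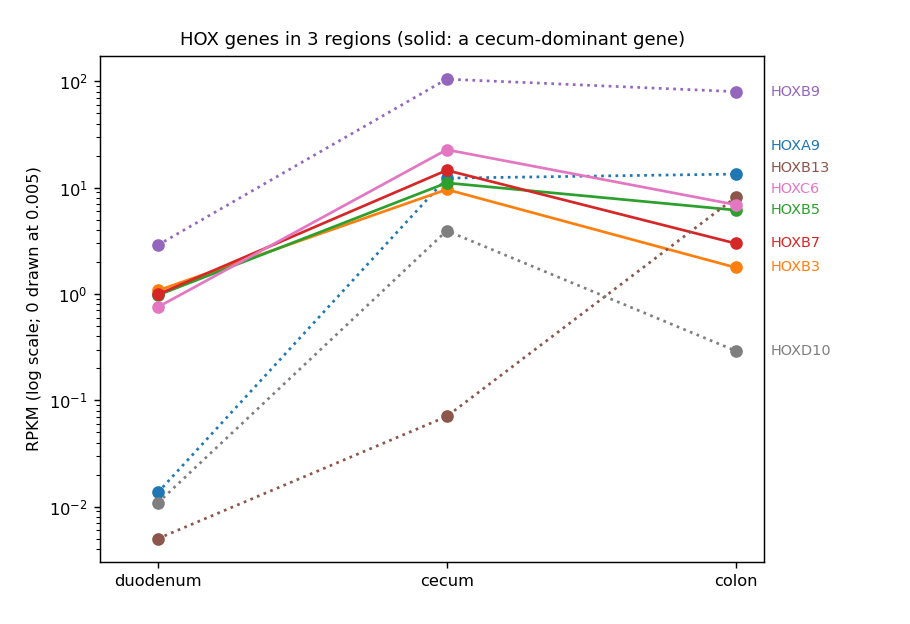
RPKM (log scale) of 8 HOX genes in the duodenum, cecum and colon, each read on the transcript of the gene with the highest mean level; each point is 1 pooled library, solid lines mark genes with a cecum-dominant transcript and dotted lines the other genes. HOXD10 and HOXB3 fall from the cecum to the colon, HOXB9 and HOXA9 stay level, and HOXB13 rises.

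The other 3 factors had smaller steps. SNAI2, a zinc finger factor of mesenchymal cells, stood at 7.44 RPKM in duodenum, 22.0 in cecum and 9.34 in colon. LMO1, a LIM-domain cofactor, stood at 0.703, 5.26 and 1.44 RPKM. OSR1, a zinc finger factor of embryonic mesoderm, stood at 2.46, 6.03 and 2.30 RPKM and was one of 24 transcripts with the duodenum above the colon. Its 95% interval of the log2 ratio of colon over duodenum held 0, at -0.38 to 0.18.

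Matrix and connective tissue genes formed the largest named group, with 20 transcripts at 5.38 to 412 RPKM in the cecum and median log2 ratios of 2.01 over the duodenum and 1.27 over the colon. The most abundant was MGP, matrix Gla protein, an inhibitor of calcification, at 182 RPKM in duodenum, 412 in cecum and 191 in colon. DCN, decorin, a proteoglycan that binds collagen, stood at 120, 360 and 144 RPKM. MGP and DCN were nearly level between the duodenum and the colon, and the cecum was at least 2-fold above both regions in all 4 exons of MGP and all 8 of DCN.

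The fibre-forming and fibre-modifying members were of middle level. FBN1, fibrillin of the elastic microfibrils, stood at 8.79 RPKM in duodenum, 39.98 in cecum and 16.5 in colon. PCOLCE2, which enhances the trimming of procollagen, stood at 5.31, 32.8 and 7.81 RPKM. PCOLCE2 had the largest step over the colon in this group, 4.21-fold. COL4A6, a basement membrane collagen chain, stood at 2.07, 9.97 and 4.12 RPKM, and AEBP1, a collagen-binding protein, at 9.06, 36.4 and 17.9 RPKM.

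Proteoglycans and their partners were present as well. VCAN, versican, stood at 2.83 RPKM in duodenum, 13.6 in cecum and 6.71 in colon. HAPLN1, which links proteoglycans to hyaluronan, stood at 1.33, 5.38 and 1.29 RPKM, close to the lower limit of the set, and its log2 ratios were 2.83 and 2.80 with the median over exons, against 2.01 and 2.05 with the sum. ITIH5, of the hyaluronan-binding inter-alpha-trypsin inhibitor family, stood at 3.55, 10.8 and 5.31 RPKM. The step over the colon was 2.03-fold for VCAN and for ITIH5 and 4.15-fold for HAPLN1.

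Growth factor binding and matricellular proteins belonged to the same group. IGFBP2 and IGFBP6 bind insulin-like growth factors. IGFBP2 stood at 6.29 RPKM in duodenum, 46.0 in cecum and 17.3 in colon, whereas IGFBP6 stood at 21.1, 47.4 and 23.4 RPKM. The 2 genes were alike in the cecum and differed in the duodenum. SERPINF1, pigment epithelium-derived factor, stood at 1.12, 17.9 and 6.93 RPKM and had the largest fold over the duodenum in the group, 16.0. CCN3, a matricellular protein, stood at 1.98, 13.8 and 5.09 RPKM, and CCDC80, a matrix protein, at 11.8, 40.4 and 12.7 RPKM.

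The remaining matrix members were ECM2, ISLR, MEDAG, MYOC, PDGFRL and SCARA5, with 6.17 RPKM (MYOC) to 41.4 RPKM (SCARA5, a ferritin receptor) in the cecum. All 6 were lower in the duodenum than in the colon. In the group as a whole the colon was above the duodenum in 19 of 20 transcripts, HAPLN1 being the exception. The same order held for 85.1% of all 161 transcripts and 47.2% of the 10895. The rule used these levels, so nothing is read from the count. The interval of the log2 ratio of colon over duodenum held 0 for HAPLN1 (-0.32 to 0.24) and MYOC (-0.21 to 0.40).

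Genes of muscle, nerve and cell membrane gave 11 transcripts described here. FHL1, a LIM-domain protein of muscle, was the most abundant, at 32.5 RPKM in duodenum, 156 in cecum and 66.4 in colon. ACTN2, the alpha-actinin of striated muscle, stood at 1.04, 7.75 and 1.94 RPKM. SMYD1, a methyltransferase of muscle, stood at 0.247, 5.85 and 2.89 RPKM. ACTN2 was highest in the cecum in all 21 exons with enough reads, whereas SMYD1 was only just past 2-fold over the colon, at 2.02, and 23.7-fold over the duodenum. With the median over exons its log2 ratio over the duodenum was 5.96 in place of 4.57.

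VIP, the vasoactive intestinal peptide of enteric neurons, which relaxes muscle and drives secretion, stood at 12.3 RPKM in duodenum, 48.7 in cecum and 14.8 in colon. Its log2 ratio was 1.98 (95% interval 1.81 to 2.17) over the duodenum and 1.72 (1.56 to 1.89) over the colon. PMP22, a myelin protein, stood at 21.2, 94.9 and 35.6 RPKM.

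Channels and junction proteins completed this group. GJA1, connexin 43 of gap junctions, stood at 26.1 RPKM in duodenum, 52.7 in cecum and 16.8 in colon. KCNK3, a leak potassium channel, stood at 1.59, 5.62 and 2.33 RPKM, and KCNAB1, a subunit of voltage-gated potassium channels, at 3.60, 9.15 and 2.88 RPKM. P2RX1, an ATP-gated channel of smooth muscle, stood at 2.29, 5.68 and 2.38 RPKM. GJA1 and KCNAB1 had the duodenum above the colon, the reverse of the other 9 members. EMP3 and F2RL2, a protease-activated receptor, were the last 2, with 41.2 and 6.16 RPKM in the cecum.

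**Figure D3:**
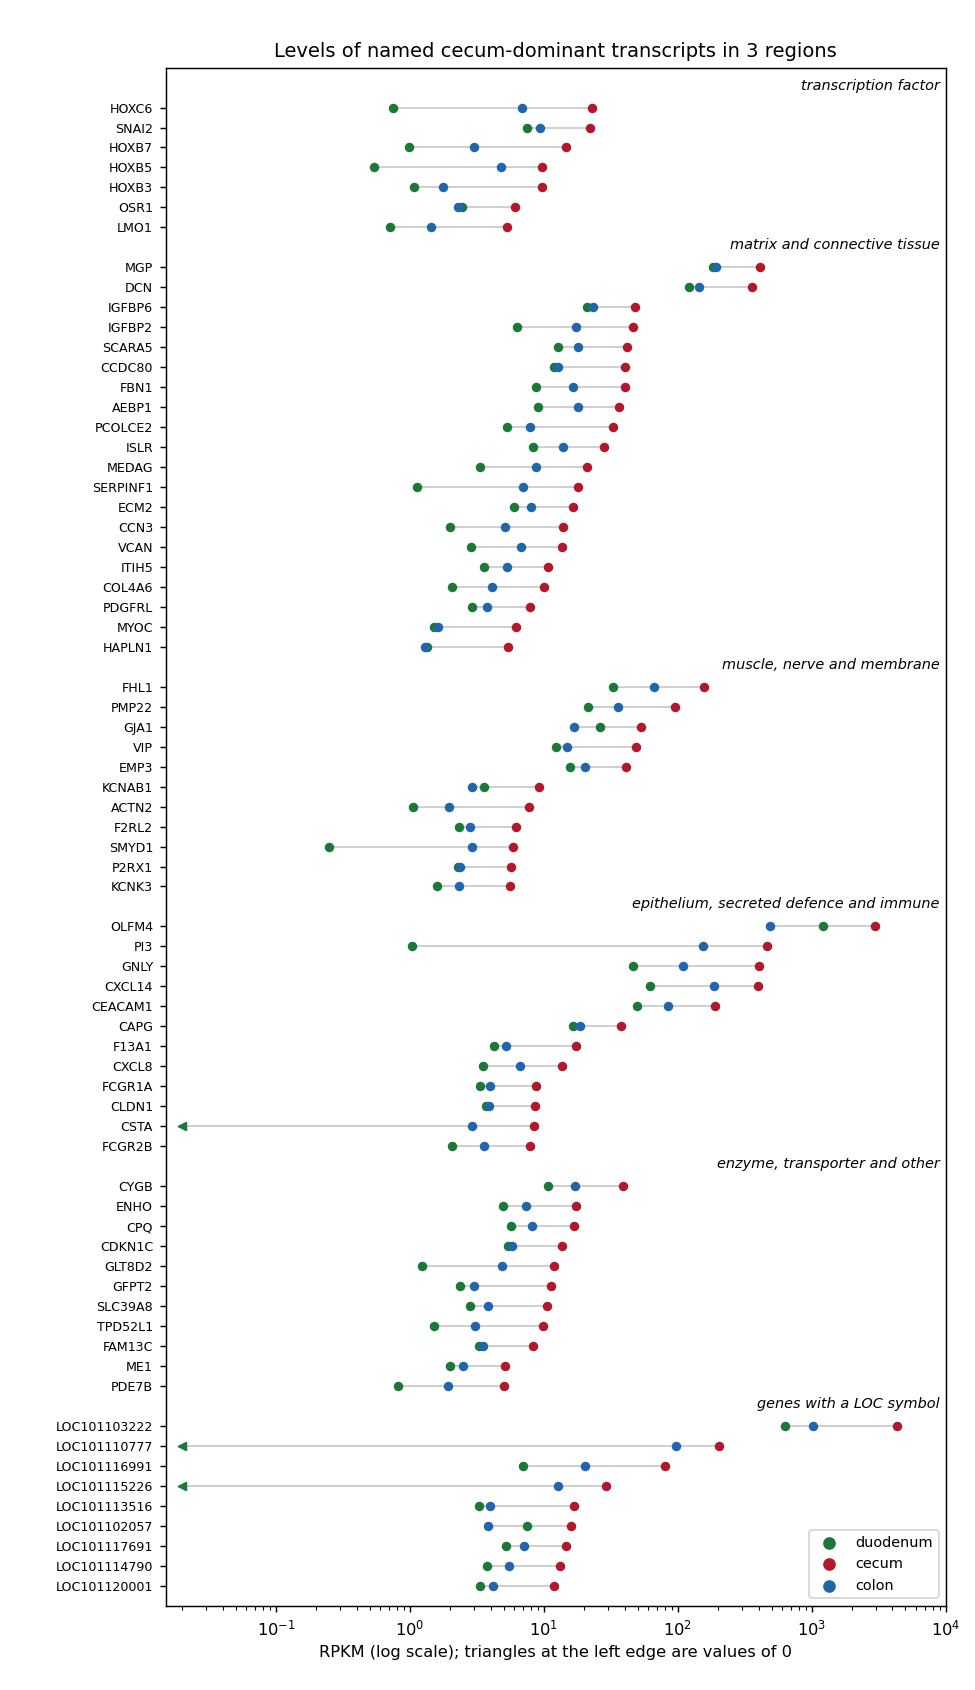
RPKM (log scale) of 70 named cecum-dominant transcripts in the duodenum (green), cecum (red) and colon (blue), grouped by role; each point is 1 pooled library, and triangles at the left edge are values of 0. The cecum lies to the right in every line because the rule required it, and the order of green and blue points shows that the colon was usually the higher of the other regions.

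Secreted defence, epithelial and immune genes ranged from 7.82 to 2945 RPKM in the cecum. PI3, elafin, an inhibitor of neutrophil elastase, stood at 1.03 RPKM in duodenum, 464 in cecum and 155 in colon. It was low in the duodenum and high in both parts of the large intestine, with a cecum level 450-fold above the duodenum and 3.001-fold above the colon. GNLY, granulysin, a protein of cytotoxic granules, stood at 46.4, 406 and 110 RPKM. CSTA, cystatin A, an inhibitor of cysteine proteases in epithelia, stood at 0, 8.40 and 2.90 RPKM, and its 261 reads in the cecum put it at least 95.5-fold above a floor of 3 reads in the duodenum.

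OLFM4 went against this order, with the duodenum above the colon. Its log2 ratio was 1.29 (95% interval 1.28 to 1.30) for the cecum over the duodenum and 2.61 (2.60 to 2.62) over the colon, and the cecum was highest in all 7 exons. CEACAM1, an adhesion molecule of epithelial surfaces, stood at 49.2 RPKM in duodenum, 188 in cecum and 84.04 in colon. CLDN1, a tight junction protein, stood at 3.67, 8.50 and 3.89 RPKM.

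The chemokines in the set were CXCL14 and CXCL8. CXCL14 stood at 62.1 RPKM in duodenum, 393 in cecum and 187 in colon, and CXCL8, which draws neutrophils, at 3.52, 13.7 and 6.65 RPKM. Both were close to the limit over the colon, at 2.11-fold and 2.06-fold. FCGR1A and FCGR2B, receptors for antibodies on myeloid cells and B cells, stood at 8.68 and 7.82 RPKM in the cecum, against 3.99 and 3.55 in the colon. F13A1, coagulation factor XIII of macrophages and platelets, stood at 4.21, 17.4 and 5.21 RPKM, and CAPG, an actin-capping protein of macrophages, at 16.5, 37.3 and 18.6 RPKM. PI3, CSTA, CEACAM1, GNLY, FCGR1A and FCGR2B belong to gene families, and reads could have been shared with related genes.

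Enzymes, transporters and other genes gave 11 transcripts at 5.02 to 38.7 RPKM in the cecum. All had the colon above the duodenum, against 47.2% of the 10895, and the rule used these levels. The 95% interval of the log2 ratio of colon over duodenum held 0 for CDKN1C (-0.19 to 0.37) and FAM13C (-0.07 to 0.26). CYGB, cytoglobin, an oxygen-binding protein of fibroblasts, stood at 10.8 RPKM in duodenum, 38.7 in cecum and 17.2 in colon. SLC39A8, an importer of zinc and manganese, stood at 2.81, 10.5 and 3.83 RPKM. GFPT2, of the hexosamine pathway that feeds glycan synthesis, stood at 2.38, 11.3 and 3.02 RPKM, and the cecum was highest in all 19 of its exons. ME1, malic enzyme, which makes NADPH, stood at 2.001, 5.16 and 2.47 RPKM. CDKN1C, a brake on the cell cycle, stood at 5.43, 13.7 and 5.79 RPKM, and the other 6 were CPQ, ENHO, FAM13C, GLT8D2, PDE7B and TPD52L1.

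The 9 transcripts with LOC symbols included the highest of the set and 2 of the 5 without reads in the duodenum. LOC101110777 had 0 reads in the duodenum and stood at 203 RPKM in the cecum and 97.5 in the colon, which is at least 1922-fold above the floor of 3 reads in the duodenum. LOC101115226 likewise had 0 reads in the duodenum, with 28.8 RPKM in the cecum and 12.7 in the colon. A 0 means less than 1 read on each exon, so its floor was set at 6 reads for its 6 listed exons, and the cecum was at least 576-fold above it. Both were thus shared by cecum and colon and only just past 2-fold between them, at 2.09 and 2.27. LOC101116991 stood at 6.97, 79.6 and 20.1 RPKM. In a later assembly LOC101103222 lies beside other LOC genes, LOC101117691 also beside MT1B and LOC101120001 also beside CD55, and reads could have been shared with similar neighbours.

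The transcripts without a symbol included several of the largest folds, and those given here were picked for them. XM_012176024.1 stood at 0 RPKM in duodenum, 7.30 in cecum and 0.064 in colon, on 195 reads and 2 reads in the cecum and colon. Its log2 ratio over the colon was 6.82, with a 95% interval from 4.95 to 9.88. XM_004022477.2 stood at 0.195, 62.6 and 3.48 RPKM, which is 17.96 times the colon. XM_004020977.2 stood at 2.63, 27.8 and 1.81 RPKM, which is 10.6 times the duodenum. XM_012103724.1 had 0 reads in the duodenum and stood at 38.5 RPKM in the cecum and 7.65 in the colon, at least 729-fold above a floor of 9 reads for its 9 listed exons. As a group, the 89 had a median of 12.3 RPKM in the cecum and a median fold of 2.46 over the higher of the other regions.

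The label of mucosal epithelium was checked against marker genes. EPCAM, an epithelial adhesion molecule, stood at 582 RPKM in duodenum, 550 in cecum and 596 in colon, and KRT8 at 823, 1635 and 1198 RPKM. Genes of smooth muscle and fibroblasts were also present in all 3 libraries. DES, desmin of muscle, stood at 199 RPKM in duodenum, 1379 in cecum and 904 in colon, and COL3A1, a fibrillar collagen, at 129, 565 and 291 RPKM. DES, COL3A1 and the epithelial KRT8 were highest in the cecum, and EPCAM was highest in the colon. Over the colon the step was 1.53-fold for DES, 1.94-fold for COL3A1 and 1.36-fold for KRT8, under the limit of the set.

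Of the smooth muscle and fibroblast list, 11 of 21 genes could be matched, and all 11 were highest in the cecum. Their summed level was 1543 RPKM in duodenum, 6836 in cecum and 4544 in colon. The median log2 ratio was 2.10 over the duodenum and 0.69 over the colon, none of the 11 was at 0 in any region, and 10 were at least 2-fold above the duodenum, but only DCN was also at least 2-fold above the colon. The part of this tissue in the levels of the cecum-dominant transcripts was not tested. In such tissue libraries, fewer cells of a type and less RNA per cell cannot be told apart.

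The median of this list over the colon is under the 2-fold limit, so the rule itself put the cecum-dominant transcripts above it on that side. As a description, 30 of them had ratios above the highest gene of the list over each region. That gene was DES over the duodenum, with a log2 ratio of 2.79. Over the colon it was DCN, with 1.32, which is itself in the set. Named among the 30 were CSTA, GNLY, HOXB3, HOXB7, HOXC6, IGFBP2, LOC101103222, LOC101116991, PI3 and SERPINF1. Those 10 include 3 of the 7 transcription factors and 2 of the 20 matrix genes. The rule used these ratios and the share among all transcripts was not counted, so nothing is read from these counts.

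Endothelial genes were highest in the cecum in 4 of 4 measured, with a summed level of 56.6 RPKM in duodenum, 131 in cecum and 80.4 in colon. Neuron and glia genes were highest there in 5 of 6, with 39.9, 113 and 58.4 RPKM, and VIP was the one gene of that list in the set. Myeloid genes were highest there in 7 of 8, with 109, 156 and 96.4 RPKM. Their part in VIP, F13A1, CAPG and the antibody receptors was not tested. Highest in the cecum were 0 of 11 B cell genes and 3 of 14 T cell and NK cell genes. Over all 5883 named genes with at least 1 RPKM in a region, the cecum was highest in 2437, or 41.4%.

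**Figure D4:**
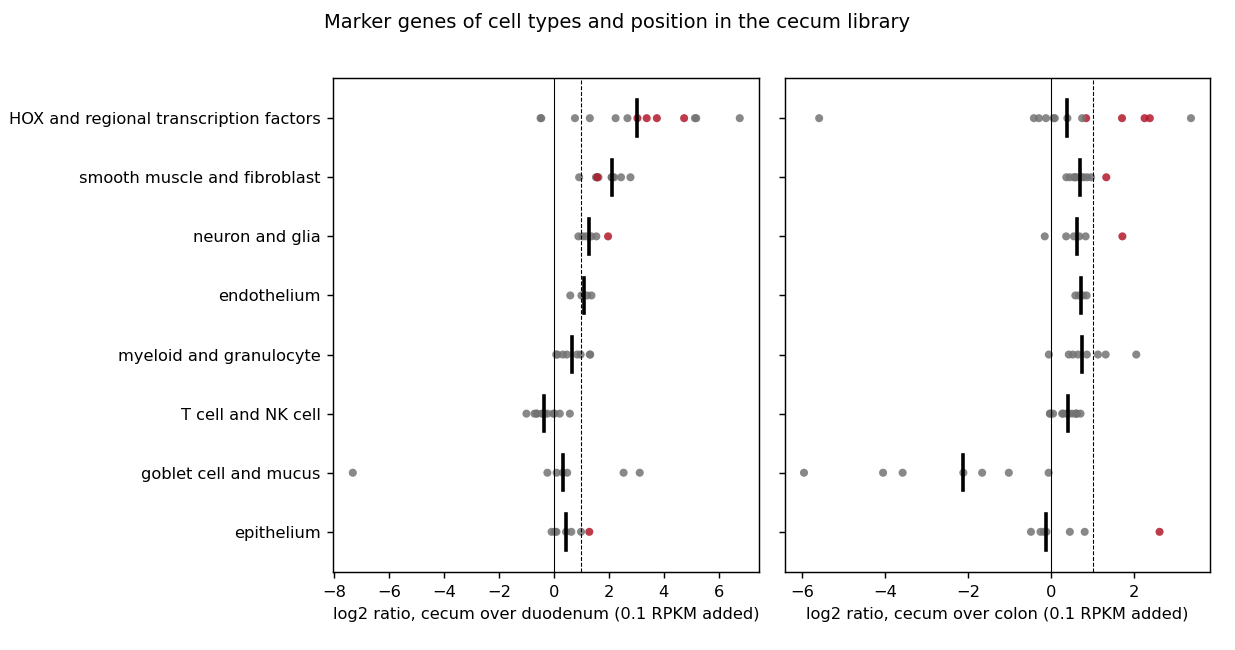
Log2 ratio of the cecum over the duodenum (left) and over the colon (right), after adding 0.1 RPKM, for genes of 8 marker lists with at least 1 RPKM in a region; each point is 1 gene, red points have a cecum-dominant transcript, black bars are list medians, and the dashed line marks 2-fold. Smooth muscle and fibroblast genes lie mostly past 2-fold on the left and under 2-fold on the right, and HOX and regional factors spread widest.

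The rule used the levels of both the colon and the duodenum, so the comparison of these regions is a description. The limit over the colon left few transcripts of the background and that over the duodenum more, and nothing is read from the difference between the shares below. The colon was above the duodenum in 137 of the 161 transcripts, or 85.1%, against 47.2% of the 10895. It was at least 2-fold above in 51, or 31.7%, against 7.11%. The duodenum was at least 2-fold above the colon in 5, or 3.11%, against 4.32%, and 105 transcripts lay within 2-fold. With 1 RPKM added to each level, the colon was at least 2-fold above in 36 and the duodenum in 2, against 5.86% and 3.78% of the background. With the Audic-Claverie measure of read sampling also required at a false discovery rate under 0.001, the numbers were 49 and 4, against 7.08% and 4.31%.

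The 51 included PI3, SMYD1, HOXC6, HOXB5, HOXB7, SERPINF1, IGFBP2, GNLY, CXCL14, FHL1 and VCAN, and for 14 the colon was at least 10-fold above the duodenum. The share of the background at 10-fold was not counted, and nothing is read from the 14. The largest step among those with reads in the duodenum and a symbol was that of PI3, with a log2 ratio of 7.23 (95% interval 6.65 to 7.82). HOXC6 had a log2 ratio of 3.20 (2.74 to 3.68) and SMYD1 of 3.55 (3.21 to 3.90). The rule put the cecum above both regions, and these genes were picked for a colon above the duodenum. Their order, with the duodenum lowest, the colon between and the cecum highest, was therefore set by the choice.

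The 5 transcripts with the duodenum at least 2-fold above the colon included OLFM4 and 3 without a symbol. Of those 3, 1 is the transcript of 9 bases given above, with 1 read in the duodenum and 0 in the colon. Its place in this count rests on that 1 read. For OLFM4 the colon lay at a log2 ratio of -1.32 (95% interval -1.33 to -1.30) to the duodenum. By group, the colon was at least 2-fold above in 4 of 7 transcription factors, 5 of 20 matrix genes, 2 of 11 muscle and nerve genes, 4 of 12 defence and immune genes and 30 of the 89 without a symbol.

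**Figure D5:**
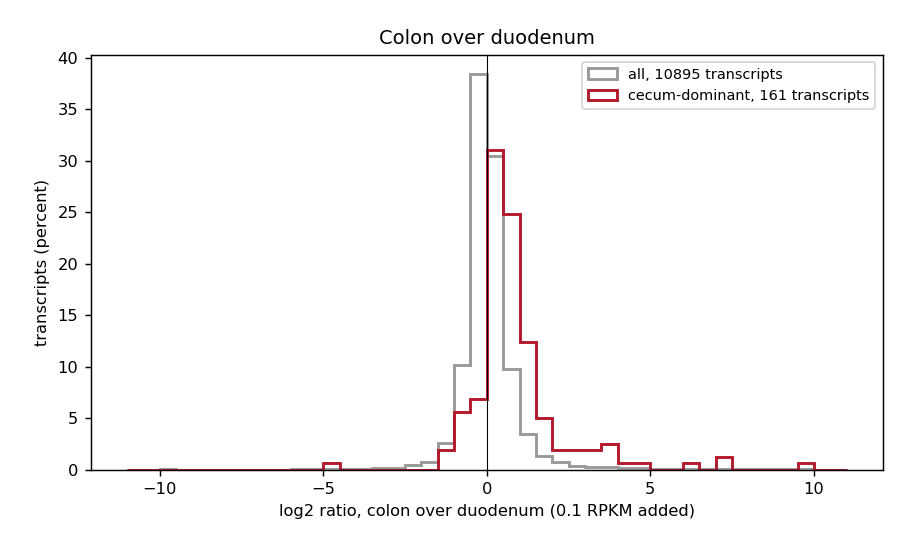
Distribution of the log2 ratio of the colon over the duodenum, after adding 0.1 RPKM, as percent of transcripts in bins of 0.5, for all 10895 transcripts with a cecum level of at least 5 RPKM (grey) and for the 161 cecum-dominant ones (red). The red outline is shifted to the right of 0, with 85.1% of the transcripts above it.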

How the data were processed

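The 3 pooled libraries were grouped by the tissue label. The authors deposited, per exon of each transcript, the estimated count of its reads, an RPKM and the percent of length covered. Per the labels, BWA and Bowtie 0.12.2 were used, while the methods describe Bowtie2 and RSEM with the sheep genome v4.0; the build of the files is not given in the sources used here. Exons under 1 read are absent and were set to 0, so a value of 0 means less than 1 read on each exon.

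Reads and lengths were summed over the exons of a transcript and scaled by the read total in the header. The levels did not use the RPKM values the authors deposited per exon. For the alternative with the median over exons, the RPKM of each exon was computed again from its reads, its length and the read total. Symbols came from a RefSeq table of assembly ARS-UI_Ramb_v3.0. Ratios have exact Clopper-Pearson intervals at 95%, from counts rounded to whole reads. For a lower bound, a level of 0 was replaced by 1 read per exon and at least 3 reads. With 1 library per region no test between regions was made, and a ratio counted as called past 2-fold. For marker lists each gene was read on its transcript with the highest mean level, and 0.1 RPKM was added.

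Named genes are the 25 with the highest cecum level, the 20 with the largest fold over the higher other region (at least 100 reads), members of the marker lists and those nearest the limits; others were chosen after their values were seen. The transcripts and lists were chosen with earlier results of these data known. Alternatives were other scalings (edgeR 4.0.16 for TMM factors), limits, pseudocounts and exon summaries. The calculations were tested on simulated data. Python 3.11.15, numpy 2.4.6, pandas 2.3.3, scipy 1.17.1 and R 4.3.3 were used. Of the transcripts past the limits, 1 was left out and 2 were counted but are not reported here by name.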

Additional observations from a re-analysis of the deposited data

How the results depend on the processing

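No paired analysis was possible because each region has 1 pooled library, and for the same reason no replicate could be left out. The limits set the size of the set. It held 351 transcripts with a minimum of 1 RPKM, 104 with 10 RPKM and 905 with only 3 reads required in the cecum; 627 at 1.5-fold, 45 at 3-fold and 20 at 4-fold; and 367 when every transcript that shares an exon was counted. Scaling by median-ratio factors, TMM factors, the exon read sum or a total without the 10 transcripts with the most reads gave 124 to 130 transcripts, of which 115 to 126 were among the 161. The last of these shifted the ratio of all transcripts by -0.13 (log2) for cecum over colon and by 0.12 for colon over duodenum. The median over exons gave 223, of which 122 were shared. A lower 95% bound of at least 2 over both regions held for 108 of the 161. Over 137 ratios of transcripts with a symbol recomputed under 6 settings, 0 of 819 values fell below 0 on the log2 scale and 71 fell under 2-fold. The rule had set every ratio at 2-fold or more, and the largest shift by a scaling was -0.13 (log2). Those scalings could therefore not bring a value below 0, and nothing is read from that count. The marker lists held 9 genes with a cecum-dominant transcript, and 14 with a minimum of 1 RPKM.

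Between colon and duodenum, at 1.5-fold 79 transcripts had the colon and 12 the duodenum higher, against 14.5% and 11.6% of the 10895. With 1 RPKM added and 2-fold 36 and 2 were, against 5.86% and 3.78%, and with the Audic-Claverie test at a false discovery rate under 0.001, which covers the sampling of reads only, 49 and 4 were, against 7.08% and 4.31%.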

Other observations

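Of 26 marker lists, 20 had no cecum-dominant transcript. Among all 5883 named genes with at least 1 RPKM in a region, 2.11% were at least 2-fold higher in the cecum than in both regions, so short lists would mostly hold none. Genes of small intestinal enterocytes had a median log2 ratio of -6.17 for the cecum over the duodenum, and genes of goblet cells and mucus a median of -2.11 for the cecum over the colon. Genes for the uptake of short-chain fatty acids and ketone metabolism had medians of 1.05 over the duodenum and -0.02 over the colon, so that they were shared by the large intestine. Genes of plasma cells had medians of -0.62 and 1.28, with 3 of 4 at least 2-fold above the colon and 0 of 4 highest in the cecum.

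Another 5 listed genes were at least 2-fold above both regions but stayed between 1 and 5 RPKM in the cecum. HOXD10 is given above. CPA3, carboxypeptidase of mast cells, stood at 0.710 RPKM in duodenum, 1.91 in cecum and 0.819 in colon, and MS4A2, part of the high-affinity IgE receptor of mast cells, at 0.376, 1.09 and 0.189 RPKM. DCLK1, a marker of tuft cells, stood at 0.801, 2.32 and 0.496 RPKM. HCAR2, a receptor for niacin, butyrate and the ketone body beta-hydroxybutyrate, stood at 0.164, 1.46 and 0.535 RPKM. These genes were found after their values had been seen, and no replicate shows whether the order would recur.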
